A study of Canis lupus familiaris with 12 samples.

Results

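Described here are the genes for proteins of the mitochondrial ribosome, measured by RNA sequencing in canine left ventricle and mitral valve, with and without degenerative mitral valve disease (DMVD). They were taken by name: every gene of the deposited tables whose symbol begins with MRPL or MRPS and a digit, MRPL standing for the large and MRPS for the small subunit. This gave 59 of the 24223 genes listed for each tissue, 38 MRPL and 21 MRPS, and the authors tested all 59 in both tissues. DMVD thickens the mitral leaflets so that blood leaks back into the left atrium. The 8 dogs, 4 of each diagnosis, gave 12 libraries. For the ventricle, DMVD was represented by 2 libraries (Jack Russell Terrier, 5 years, and Pomeranian, 9 years) and control by 4 (Beagle, 8 years, and 3 Hound mix dogs, each 3 years). For the valve, DMVD was represented by 3 libraries (the Pomeranian and Beagles aged 16 and 17 years) and control by 3 (the 8-year-old Beagle and 2 of the Hound mix dogs). Sample titles tie both tissues to 3 control dogs and 1 DMVD dog. Diagnosis cannot be told apart from breed and age in either tissue.

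The mitochondrial ribosome sits in the mitochondrial matrix and makes the few proteins that mitochondrial DNA encodes, all of them core subunits of the respiratory chain and ATP synthase. Its ribosomal RNAs come from mitochondrial DNA, while its proteins are encoded in the nucleus, made in the cytosol and imported. Some of these proteins have counterparts in bacterial ribosomes and others are found only in mitochondria. Heart muscle depends heavily on oxidative metabolism, and inherited defects of several mitochondrial ribosomal proteins, MRPL3 and MRPL44 among them, cause cardiomyopathy in people.

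Each table gives 1 value per gene and group, read as FPKM (fragments scaled to gene length and library size), so no value per dog can be shown and library depths are unknown. Differences are log2 of the DMVD over the control value, given ± the standard error (SE) that follows from the authors' test statistic. Over all rows the summed FPKM of the ventricle was 1.07e+06 in DMVD and 1.9e+06 in control, and the 10 highest rows held 29.2% and 67.9% of these sums. In the valve the sums were 772300 and 898415, with 20.7% and 30.6% in the 10 highest rows. The labelled tissues carried heart muscle transcripts throughout. Of 10 cardiomyocyte markers found in the tables, 9 were above 0 in every group. The myosin heavy chain MYH7 was listed at 0 in the control ventricle and at 1637 FPKM in the DMVD ventricle. Its ventricle row was not tested by the authors and shares its span with another gene, so the 0 is not read as absence. The fibroblast marker LUM stood at 575 FPKM in the control valve and 73.6 FPKM in the control ventricle.

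In the ventricle the median differences of the mitochondrial ribosomal protein genes lay near 0 on the deposited scale. The median log2 difference was -0.01 for the large subunit, with 19 of 38 genes higher and 19 lower, and -0.07 for the small subunit, with 6 of 21 higher and 15 lower. In the valve most members had lower values in DMVD. The valve medians were -0.34 for the large subunit, with 34 of 38 genes lower, and -0.30 for the small subunit, with 19 of 21 lower. Across all tested genes the median was -0.04 in the ventricle, where 53.2% had lower DMVD values, and 0.05 in the valve, where 45.1% had lower values. No single member passed the test in either tissue on the deposited scale.

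The ventricle direction rests on the scale of the columns. Scaling the columns to equal sums of FPKM adds 0.83 to every ventricle difference, and the medians became 0.82 for the large and 0.76 for the small subunit, with 38 of 38 and 19 of 21 genes higher, beside 0.79 over all tested genes. On that scale MRPL50 (1.55 ± 0.44), MRPL17 (1.30 ± 0.42) and MRPS21 (1.25 ± 0.44) passed the test in the ventricle. The same scaling put 11841 of 13451 tested genes with values in both groups above 0. The share of all tested genes passing on that scale is not given here, so these passes are not read as particular to the members. With the 100 highest rows left out of the sums, the ventricle medians were -0.27 and -0.33, beside -0.30 over all tested genes, and 0 members passed. The valve medians stayed below 0 on both scales, at -0.12 and -0.08 with all rows, where 26 of 38 and 12 of 21 genes were lower, and at -0.36 and -0.32 without the 100 highest. All values that follow are on the scale as deposited.

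**Figure D1:**
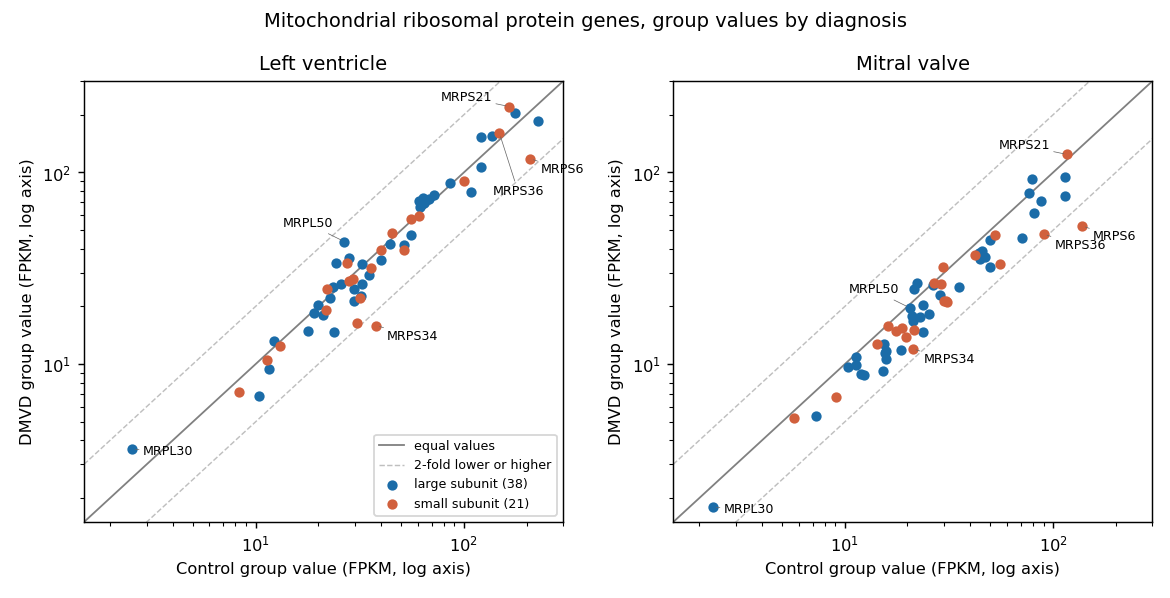
Group values of the 59 genes in FPKM on log axes, control on the x axis and DMVD on the y axis, for the large subunit (38 genes) and the small subunit (21 genes); 1 point is 1 gene and there are no error bars because the tables hold 1 value per group. Ventricle points lie around the line of equal values, while in the valve 53 of 59 points lie below it, with MRPS6 below the lower dashed line (2-fold lower), as is MRPS34 in the ventricle.

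The levels themselves spread widely within the family. FPKM is a level per length of the gene, so levels of different genes are set side by side within a table. Some high members have short listed spans, such as MRPL34 with 473 and MRPL36 with 333 bases. Another 12 members share their span with other genes. How far this moves the order of levels was not tested. In the control ventricle they ran from 2.55 to 228 FPKM with a median of 32.3, and in the DMVD ventricle from 3.60 to 221 FPKM with a median of 33.6. In the control valve they ran from 2.32 to 138 FPKM with a median of 23.8, and in the DMVD valve from 1.79 to 124 FPKM with a median of 21.2. Median levels of large and small subunit genes were 32.3 and 35.7 FPKM in the control ventricle and 23.3 and 29.1 FPKM in the control valve. In DMVD they were 34.2 and 31.9 FPKM in the ventricle and 20.1 and 21.3 FPKM in the valve. These are high places in the transcriptome: the median member stood at percentile 87.0 of all tested genes in the control ventricle and 86.1 in the DMVD ventricle, and at 81.6 and 79.3 in the control and DMVD valve. The transcript levels were still far below those of nuclear oxidative phosphorylation genes and of cytosolic ribosomal protein genes. Transcripts of mitochondrial DNA were not compared. The nuclear subunits of oxidative phosphorylation had a median of 452 FPKM in the control ventricle and 254 FPKM in the control valve, and cytosolic ribosomal proteins had 284 and 330 FPKM.

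At the top of the order in the control ventricle stood MRPL34 with 228 FPKM, MRPS6 with 208 and MRPL55 with 176. MRPL34 and MRPS6 are counterparts of bacterial ribosomal proteins. In the control valve the highest were MRPS6 with 138 FPKM, MRPS21 with 117 and MRPL55 with 114. MRPS21, a small protein with a bacterial counterpart, had 166 FPKM in the control ventricle and the highest value of all members in the DMVD groups, 221 FPKM in the ventricle and 124 in the valve. The lowest levels belonged to MRPL30, with 2.55 FPKM in the control ventricle and 2.32 in the control valve, and to MRPS30, with 8.29 and 5.68 FPKM. Next above them came MRPL10, the stalk-base protein, at 10.4 FPKM in the control ventricle, and MRPL51 at 7.24 FPKM in the control valve. The order of the 59 levels had a Spearman rho across genes of 0.93 between DMVD and control ventricle, 0.96 between DMVD and control valve, 0.92 between control ventricle and control valve and 0.88 between DMVD ventricle and DMVD valve. Genes share gene length and sequence between columns and are not independent replicates, so no p is given.

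**Figure D2:**
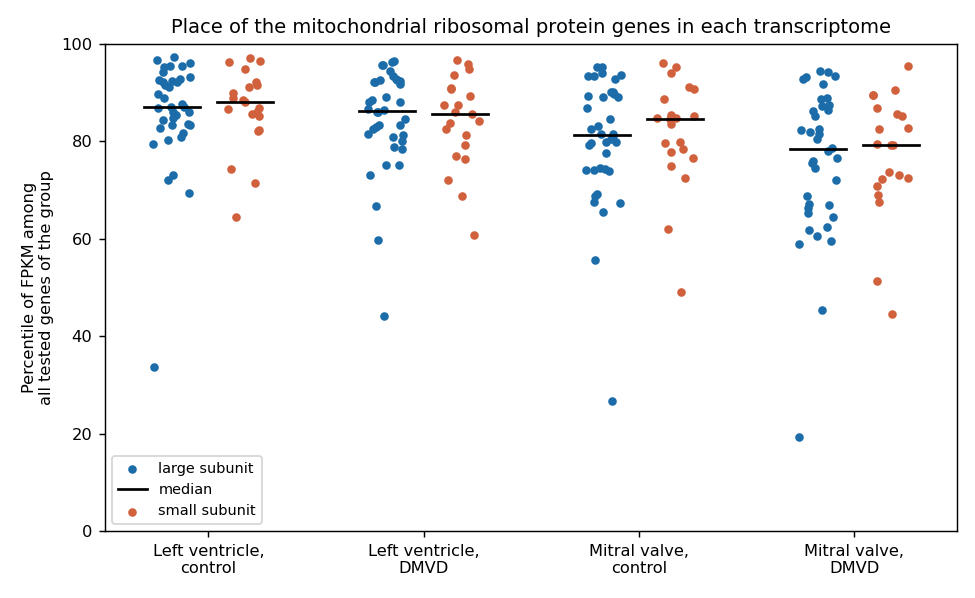
Percentile of each gene's FPKM among all tested genes of the same tissue, for the 38 large and 21 small subunit genes in each of the 4 groups; points are genes and black bars are medians. Medians lie between 78.4 and 88.0 in every group, and MRPL30 is the lowest point in each, from 19.4 in the DMVD valve to 44.2 in the DMVD ventricle.

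No member of either subunit passed an adjusted p of 0.05 in the ventricle (Benjamini-Hochberg over the authors' p for 13788 tested genes), where 3.08% of all tested genes passed, 1.92% with higher and 1.16% with lower DMVD values. At an unadjusted p under 0.05 there were 2 of 59, both small subunit genes with lower DMVD values, against 11.3% of all tested genes in either direction, 5.74% with higher and 5.51% with lower values. The lowest adjusted p of a member was 0.434. For a gene with the members' median SE of 0.44, a log2 difference of 1.38, or 2.61-fold, would have been needed to pass in this tissue. The 95% interval of the difference stayed inside 2-fold in both directions for 20 of 59 members. For 28 members it reached a 2-fold lower value and for 19 a 2-fold higher value.

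Of the small subunit in the ventricle, MRPS34 lay lowest. MRPS34, a mitochondria-specific protein whose inherited loss causes a Leigh-like brain disease in people, had 15.9 FPKM in DMVD and 38.0 FPKM in control, a log2 difference of -1.26 ± 0.64 (gene ENSCAFG00000019496, p = 0.0499 in the authors' deposited table, adjusted p = 0.444). Its listed position, chromosome 6, 39130544 to 39180729 on CanFam3.1, is a span shared with NME3 and MAPK8IP3. MRPS27, a pentatricopeptide-repeat protein of the small subunit, had 16.5 and 30.7 FPKM (-0.90 ± 0.51) and shares its span with PTCD2. MRPS6 (ENSCAFG00000028779, chromosome 31, 29508317 to 29579317) had 118 FPKM in DMVD and 208 FPKM in control, a difference of -0.82 ± 0.41 (p = 0.0480 in the authors' deposited table, adjusted p = 0.434). MRPS11 had 22.01 and 31.6 FPKM (-0.52 ± 0.42). None of these 4 passed. At the other end, MRPS21 had 221 and 166 FPKM (0.42 ± 0.44), MRPS18B 33.7 and 27.5 FPKM (0.29 ± 0.43), MRPS9 24.6 and 22.1 FPKM (0.15 ± 0.41) and MRPS36 160 and 148 FPKM (0.11 ± 0.45).

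Large subunit genes of the ventricle lay from -0.69 to 0.71, and small subunit genes from -1.26 to 0.42. Between the 25th and 75th percentile the ranges were -0.27 to 0.11 for the large and -0.21 to 0.03 for the small subunit. MRPL50, a mitochondria-specific protein (ENSCAFG00000032597, chromosome 11, 58125892 to 58129665), had the highest difference, with 43.6 FPKM in DMVD and 26.6 FPKM in control (0.71 ± 0.44, adjusted p = 0.618 from the p of the authors' deposited table). MRPL30 followed with 3.60 and 2.55 FPKM (0.50 ± 0.76), MRPL17 with 33.6 and 24.3 FPKM (0.47 ± 0.42) and MRPL35 with 35.9 and 28.0 FPKM (0.36 ± 1.24). None of these passed. The lowest were MRPL38 with 14.7 and 23.8 FPKM (-0.69 ± 0.49), MRPL10 with 6.84 and 10.4 FPKM (-0.60 ± 0.51), MRPL4 with 22.6 and 32.0 FPKM (-0.50 ± 0.41) and MRPL24 with 21.4 and 29.6 FPKM (-0.47 ± 1.19). MRPL4 and MRPL24 are counterparts of bacterial proteins near the exit tunnel of the ribosome. Of the 38 genes, 4 lay more than 1 SE below 0 and 2 more than 1 SE above it, against 18.8% and 15.8% of all tested genes of the ventricle.

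In the valve the test passed no member either, where 0.419% of all 14810 tested genes passed, 0.311% with higher and 0.108% with lower values. At an unadjusted p under 0.05 there was 1 of 59, MRPS6, with a lower value, against 4.2% of all tested genes, 2.73% with higher and 1.47% with lower values. A gene with the members' median SE of 0.50 would have needed a log2 difference of 1.85, or 3.61-fold, to pass. The 95% interval stayed inside 2-fold in both directions for 4 of 59 members and reached a 2-fold lower value for 51. It reached a 2-fold higher value for 18. A total of 15 members lay more than 1 SE below 0, 9 of the large and 6 of the small subunit, and 0 lay more than 1 SE above it. Over all tested genes of the valve 7.29% lay more than 1 SE below and 10.4% more than 1 SE above 0. The middle range, between the 25th and 75th percentile of the members' log2 differences, was -0.46 to -0.21 for the large and -0.52 to -0.15 for the small subunit, against -0.24 to 0.35 over all tested genes.

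**Figure D3:**
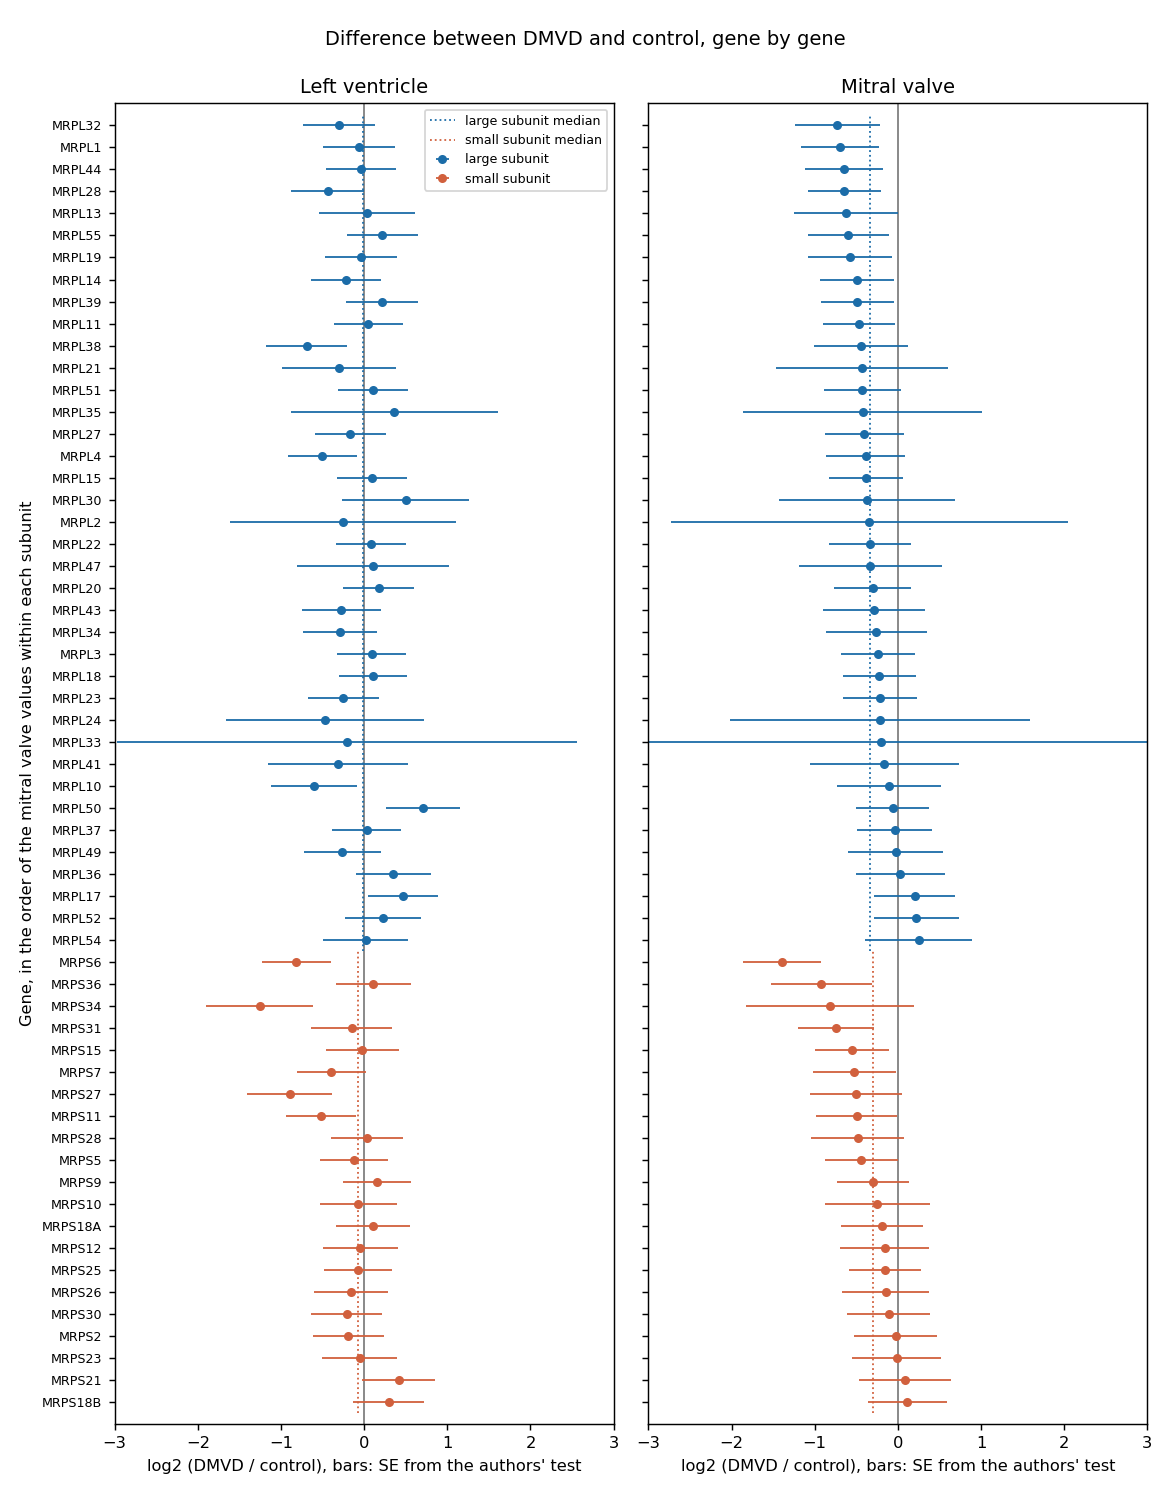
Log2 difference (DMVD over control) of every member in the ventricle (left) and the valve (right), with bars for the SE implied by the authors' test and dotted lines for the subunit medians. Genes are ordered by their valve value within each subunit, and the valve bar of MRPL33 runs past the axis. Ventricle points scatter around 0, while valve points sit mostly left of it with medians of -0.34 and -0.30, with 15 of 59 more than 1 SE below 0.

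MRPS6 had the lowest valve value of all members, with 52.6 FPKM in DMVD and 138 FPKM in control, a log2 difference of -1.39 ± 0.47 (95% interval -2.31 to -0.47, p = 0.00316 in the authors' deposited table, adjusted p = 0.282). It was the most abundant member of the control valve and stood at percentile 96.1 there and 90.5 in DMVD. Next came the row named MRPS36, with 47.6 and 90.1 FPKM (-0.92 ± 0.60). That row lies on another chromosome than the RefSeq gene of this symbol and may be a copy. MRPS36 carries the name of a ribosomal protein but was later assigned to the 2-oxoglutarate dehydrogenase complex of the citric acid cycle. MRPS34 had 12.03 and 21.2 FPKM (-0.82 ± 1.01) and the mitochondria-specific MRPS31 33.2 and 55.5 FPKM (-0.74 ± 0.46). The small subunit genes with the highest values were MRPS18B, with 32.0 FPKM in DMVD and 29.5 in control (0.12 ± 0.47), MRPS21 (124 and 117 FPKM, 0.09 ± 0.55), MRPS23 (26.7 and 27.0 FPKM, -0.02 ± 0.53) and MRPS2 (15.9 and 16.2 FPKM, -0.02 ± 0.50).

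Among large subunit genes of the valve, MRPL32 lay lowest, with 9.26 FPKM in DMVD and 15.3 FPKM in control (-0.73 ± 0.52). Its protein is cleaved by the m-AAA protease on import, a step of ribosome assembly. MRPL1, the protein of the stalk where transfer RNA leaves, had 14.6 and 23.8 FPKM (-0.70 ± 0.47). MRPL44, which has an RNase III fold, had 11.9 FPKM in DMVD and 18.6 FPKM in control in the valve (-0.65 ± 0.47), and 22.3 and 22.8 FPKM in the ventricle (-0.04 ± 0.42). MRPL28 had 45.5 and 70.9 FPKM (-0.64 ± 0.44). MRPL3, the other cardiomyopathy gene, had 17.9 and 21.1 FPKM in the valve (-0.24 ± 0.44) and 25.2 and 23.7 FPKM in the ventricle (0.09 ± 0.41). The 4 large subunit genes with higher DMVD values were MRPL54 (26.4 and 22.2 FPKM, 0.25 ± 0.64), MRPL52 (92.4 and 79.1 FPKM, 0.22 ± 0.51), MRPL17 (24.6 and 21.4 FPKM, 0.20 ± 0.48) and MRPL36 (78.6 and 76.9 FPKM, 0.03 ± 0.54).

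Members with and without a bacterial counterpart were set apart by a list drawn up for this comparison. It put MRPS18A with the counterpart genes, but MRPS18B and MRPL47 with the mitochondria-specific genes. Other assignments of these genes would change the classes, and none was tried. In the valve the 38 genes with a counterpart had a median of -0.38 with 35 lower, and the 20 mitochondria-specific genes had -0.16 with 17 lower. In the ventricle the medians were -0.05 and -0.06. MRPS36 was in neither class, and the difference between the classes was not tested. Scaling the columns to equal sums adds the same amount to both classes. Their valve medians became -0.16 with a counterpart and 0.06 for the mitochondria-specific genes. MRPS30 and MRPS18A carry small subunit names, but in the structure of the mammalian ribosome they lie in the large subunit. MRPS30 had -0.21 ± 0.43 in the ventricle and -0.11 ± 0.50 in the valve, and MRPS18A 0.11 ± 0.45 and -0.19 ± 0.49. With both counted as large, the valve medians were -0.33 for the large and -0.44 for the small subunit.

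The effects of DMVD in the tissues were also compared gene by gene, valve minus ventricle. No member passed an adjusted p of 0.05 over the 13099 genes tested in both, where 0.107% of all genes passed, 0.0382% with the valve effect above and 0.0687% with it below the ventricle effect. At an unadjusted p under 0.05 there were 0 members, against 2.66% of all genes, 1.69% above and 0.962% below. The lowest differences were -1.03 ± 0.75 for MRPS36, -0.87 ± 1.31 for MRPL30 and -0.81 ± 0.65 for MRPL55. The rows named MRPS36 and MRPL30 lie on another chromosome than in RefSeq. The highest differences were 0.49 ± 0.81 for MRPL10, 0.44 ± 1.20 for MRPS34 and 0.39 ± 0.76 for MRPS27. The test takes the tissues as independent, although 4 dogs gave both. No member was shown to differ in its effect between the tissues.

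Other genes of mitochondrial protein synthesis, from lists drawn up by function, did not pass one by one in either tissue, and with columns scaled to equal sums each of their ventricle medians, and the valve medians of the synthetases and of the mitochondrial DNA list, turned above 0. Of 7 genes for subunits under other names and the peptide deformylase PDF, 6 had lower DMVD values in each tissue, with medians of -0.22 in the ventricle and -0.39 in the valve. Of these, the small subunit protein AURKAIP1 had -0.63 ± 0.43 and the large subunit protein GADD45GIP1 -0.60 ± 0.46 in the ventricle, and CHCHD1 had -0.65 ± 0.53 in the valve. Of 14 translation factors 12 were lower in the ventricle (median -0.22) and 13 in the valve (median -0.45). TACO1, the translational activator of cytochrome oxidase subunit 1, had -1.2 ± 0.47 in the ventricle and -0.88 ± 0.60 in the valve. Of 22 factors that assemble the ribosome or modify its RNA, 18 were lower in the ventricle (median -0.43) and 20 in the valve (median -0.28), with the RNA methyltransferase FTSJ2 at -1.29 ± 0.59 in the ventricle and the assembly factor MALSU1 at -0.54 ± 0.47 in the valve. Of 16 mitochondrial aminoacyl-tRNA synthetases 12 were lower in each tissue, with medians of -0.49 and -0.18, and LARS2, which charges leucine transfer RNA, had -1.36 ± 0.48 in the ventricle. Of 15 genes for replication and expression of mitochondrial DNA, 11 were lower in the ventricle (median -0.22) and 14 in the valve (median -0.14). TFB2M, a transcription factor of mitochondrial DNA, had -0.93 ± 0.45 in the valve and TFAM, which packages that DNA, -0.75 ± 0.67.

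Among 11 regulators of mitochondrial biogenesis 1 passed. The growth regulator MYC rose in the ventricle by 2.39 ± 0.46 (adjusted p = 3.74e-05 from the p of the authors' deposited table), from 2.93 to 15.4 FPKM, and had 1.42 ± 0.50 in the valve (adjusted p = 0.360). The coactivator PPRC1 had 0.93 ± 0.47 and 0.73 ± 0.50, and PPARGC1B -1.04 ± 0.53 in the ventricle. Of 14 rows for general mitochondrial proteins 0 passed in either tissue, with medians of -0.09 in the ventricle and -0.21 in the valve (0.75 and 0.01 with columns scaled to equal sums), and the matrix protease CLPP had -1.0 ± 0.43 and -0.70 ± 0.46.

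Of 52 tested rows for nuclear subunits of oxidative phosphorylation, the complexes that the mitochondrial products join, 0 passed in either tissue. In the valve 52 of 52 had lower DMVD values, with a median of -0.72, and in the ventricle 19 of 52 were lower, with a median of 0.08. The complex III subunit UQCRC1 had -1.14 ± 0.50 in the valve and -0.74 ± 0.50 in the ventricle. For cytosolic ribosomal proteins, 57 of 57 tested rows in the ventricle had higher DMVD values, with a median of 0.79 and 0 passing, and in the valve 52 of 58 were higher, with a median of 0.12. On the equal-sum scales the median of the oxidative phosphorylation genes stayed below 0 in the valve (-0.50 with all rows) and was 0.92 with all rows and -0.17 without the 100 highest in the ventricle. That of the cytosolic ribosomal proteins stayed above 0 on each scale in both tissues. Differences between lists were not tested.

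**Figure D4:**
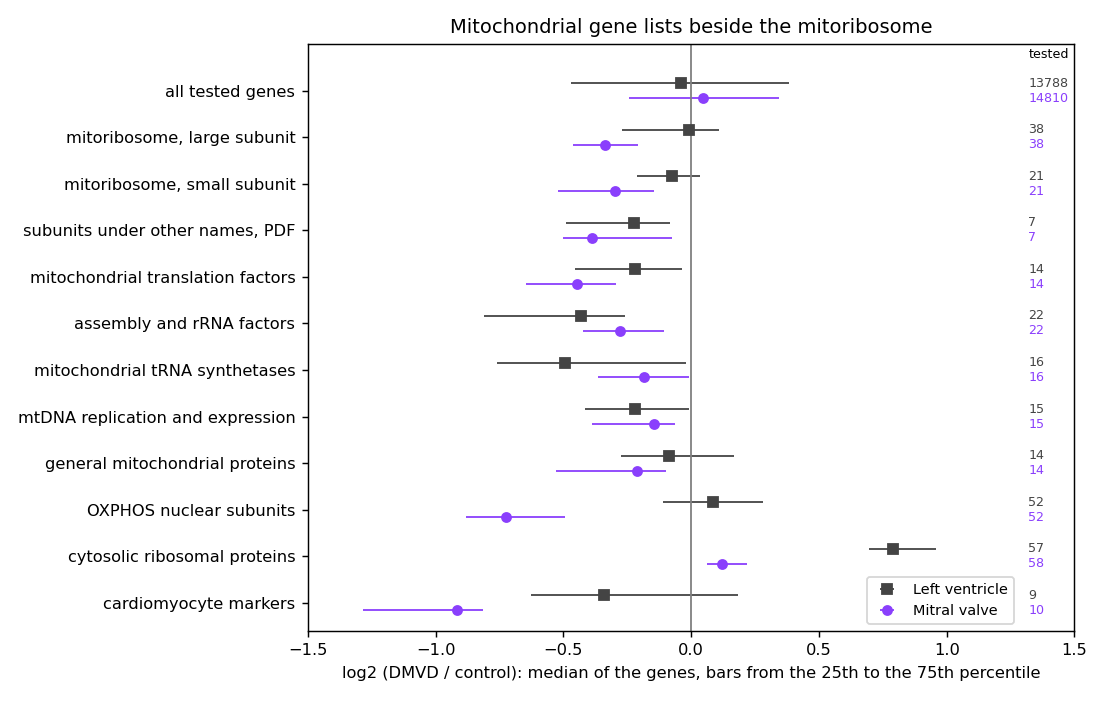
Median log2 difference (DMVD over control) of each gene list in the ventricle (squares) and the valve (circles), with bars from the 25th to the 75th percentile of its genes and the number tested at the right. Both mitoribosomal subunits sit near 0 in the ventricle and at -0.34 and -0.30 in the valve, between OXPHOS nuclear subunits at -0.72 and all tested genes at 0.05.

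Of 10 cardiomyocyte markers 9 had lower DMVD values in the valve, of which 1 passed, with a median of -0.92, and their summed level was 10669 FPKM in DMVD and 19680 FPKM in control. The ventricular light chain MYL3 fell by 5.19 ± 0.68 (adjusted p = 2.64e-10 from the p of the authors' deposited table), from 1335 to 36.6 FPKM, and myoglobin MB had -1.38 ± 1.21. ACTC1 was the 1 higher marker of the valve (0.18 ± 2.13), and MYL4 had -0.14 ± 1.67. The median SE of the valve markers was 1.29, and 3 of 10 lay more than 1 SE below 0. In the ventricle 6 of 9 tested cardiomyocyte markers were lower, with a median of -0.34, or 0.49 with columns scaled to equal sums. The 2 ventricle markers with the smallest p were higher, MYL4 (1.66 ± 0.66) and ACTC1 (1.07 ± 0.64). Neither passed. Macrophage markers were higher in 9 of 9 in each tissue, 4 and 2 of them passing in ventricle and valve, with summed levels of 256 against 38.0 FPKM in the ventricle and 242 against 77.4 FPKM in the valve. Without S100A8 and S100A9, which neutrophils also express, the sums were 82.2 against 30.8 FPKM and 219 against 70.6 FPKM, with 2 and 1 of 7 passing. Endothelial markers were higher in 8 of 8 in each tissue, with medians of 1.01 and 0.91, and 3 and 1 passed. Erythroid markers summed to 44.8 FPKM in DMVD and 1.26 FPKM in control in the ventricle, where 3 of 3 rose, and to 3.78 and 1.36 FPKM in the valve. Of 4 fibroblast markers found, 3 were tested, with medians of -0.37 in the ventricle (0.46 with columns scaled to equal sums) and 0.29 in the valve. The part of these cell types in the members' values was not tested, and in bulk tissue fewer cells of a type and less RNA per cell cannot be told apart.

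Several members have limits of their own. Of the 59, 12 share their listed span with other genes, and these hold the largest SEs: 2.77 in the ventricle and 8.51 in the valve for MRPL33, which shares its span with ATL3, and 1.36 and 2.39 for MRPL2, whose span holds 15 genes. Of the 59 symbols, 58 were found in the RefSeq gene table of the assembly UU_Cfam_GSD_1.0, and the symbol not found there is MRPS6. MRPL33, MRPL30 and MRPS36 lie there on another chromosome than in the deposited tables. The row named MRPL30 covers 640 bases of chromosome 23 (46614431 to 46615070) and the row named MRPS36 covers 312 bases of chromosome 5 (25834145 to 25834456). Which copy of these 3 genes was counted was not tested. A further 18 family symbols of RefSeq, MRPL12, MRPS14, MRPS16 and MRPS22 among them, are on no row by name and were not analysed here.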

How the data were processed

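Per the labels' protocols, RNA came from a Qiagen fibrous-tissue kit and libraries from the Illumina TruSeq RNA kit. The submitters' processing notes name cutadapt, Bowtie, TopHat and CanFam3.1, without versions. Which program made the gene tables is not given in the sources. Per the file headers, the authors deposited 1 value per gene and group, read as FPKM from the column layout, with their own unadjusted p-value. Values per library were not used, so the planned fits of libraries were replaced by the authors' test. The tables were taken as normalised separately, and no level was compared across tissues by a test.

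Log2 differences were recomputed as DMVD over control. Because the p-value equals the normal p of the authors' deposited statistic (largest gap 2.84e-06), the SE was taken as the size of the difference over that statistic. P-values were adjusted by Benjamini-Hochberg over all tested genes of a tissue, at 0.05. For valve minus ventricle, the SEs of both tissues were combined as for independent effects and a two-sided normal p was taken. Positions count from 1, with 1 added to the listed starts. Functions were tested on simulated data. Scripts ran in Python 3.11.15 with pandas 2.3.3, numpy 2.4.6 and scipy 1.17.1, and figures were drawn with matplotlib 3.10.9.

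Members, lists and tests were chosen with earlier results of these data known. Named genes were the members past 0.05, the 4 highest and 4 lowest differences per tissue and subunit, the 3 highest and lowest control levels, the 3 largest tissue differences each way, genes of human disease, and up to 3 genes per list with the smallest p. No spread between dogs could be computed, so the p-values rest on the authors' own error model. Alternatives covered thresholds, filters, pseudocounts, scales and the choice of members. A single gene of the lists beside the members is not reported here.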

Additional observations from a re-analysis of the deposited data

Results flagged for a closer look

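No member differed between the tissues by the test of valve effect minus ventricle effect, but 1 gene from the cardiomyocyte marker list did. For the cardiac light chain MYL3 the valve effect lay -5.12 ± 0.96 from the ventricle effect on the log2 scale (adjusted p = 0.000369 from the authors' deposited statistics), with -5.19 in the valve and -0.07 in the ventricle. The test takes the tissues as independent, although 4 dogs gave both.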

How the results depend on the processing

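No paired analysis was possible because the tables hold 1 value per group, and for the same reason no library could be left out and no other count normalisation was run. On the deposited and the median-centred scales (with a threshold of 0.10, filters at 1 and 5 FPKM, adjustment over both tissues, centring on the median of all genes, and only members alone at their locus) 0 members passed in either tissue, and 0 in valve minus ventricle. On these scales the lowest adjusted p of a member was 0.357 in the ventricle and 0.130 in the valve; for MRPS6 it ran from 0.357 to 0.645 in the ventricle and from 0.130 to 0.282 in the valve. Apart from the equal-sum scales, medians ran from -0.07 to 0.03 (MRPL) and -0.13 to -0.03 (MRPS) in the ventricle, and from -0.38 to -0.32 and -0.44 to -0.27 in the valve. Scaling to equal sums, chosen after seeing the data, moved the ventricle medians to 0.82 (MRPL) and 0.76 (MRPS). It moved the genes higher to 38 of 38 and 19 of 21, and the members passing to 3. The share of all tested genes passing on that scale is not given here. In the valve the scaling moved the genes higher to 12 of 38 and 9 of 21. With the 100 highest rows left out of the sums, 5 of 38 and 2 of 21 were higher in the ventricle. Centring on all genes turned the sign in the ventricle for MRPL19 (0.00094), MRPL44 (0.0060) and MRPS15 (0.020), and in the valve for MRPL36 (-0.016). Centring on genes of at least 5 FPKM, also chosen after seeing the data, turned it in the ventricle for MRPL11 (-0.0076), MRPL13 (-0.020), MRPL37 (-0.028), MRPL54 (-0.040) and MRPS28 (-0.024). Depth per library is unknown. At the members' median SE, an observed difference under about 2.61-fold in the ventricle or 3.61-fold in the valve would not have passed.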
